A study of Mus musculus with 28 samples.

Results

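The expression of 5 mouse genes of the meiotic chromosome axis and synaptonemal complex (Sycp1, Tex12, Sycp3, Hormad1 and Smc1b) was followed across germ cells, germ-cell-derived cultures and testis. The genes were taken as a named set, and their probes were found through the RefSeq accession that the array files give for each probe. They make up 5 of 13023 RefSeq-named genes, and 10 of the 43803 probes target them. Sycp1 had 2 probes, Tex12 had 3, Sycp3 and Hormad1 had 2 each and Smc1b had 1.

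RNA was measured on 28 single-colour Agilent arrays, 2 for each of 14 groups, in a series whose title concerns DNA methylation of primordial germ cells (PGC), the embryonic founders of eggs and sperm. PGC of each sex, aged 10.5, 13.5 or 17.5 days of gestation (here E10.5, E13.5 and E17.5), came from the cross BDF1 x TgN(deGFP)18Imeg, which carries a green fluorescent transgene. Oogonia (female) and spermatogonia (male), with no age in the labels, came from BDF1 x Tg(Mvh-Venus)1Rbrc, whose Venus reporter is named for the germ cell gene Mvh (Ddx4). The embryonic germ (EG) samples, female and male, combined Rb(X.2)2Ad with 129/Sv. They are called EG in their titles, while their source field names PGC of 12.5 days. Embryonic stem (ES) cells were line no5 (female, 129/Sv) and line TMA5 (male, a hybrid of TgN (deGFP)20Imeg and MSM/Ms), so each sex was 1 line of another strain. GS samples were male DBA/2, and adult testis was C57BL/6J. Whether the pair of arrays in a group had separate biological sources is not in the labels, so p-values reflect only how these samples scattered, and that scatter may be technical. In bulk RNA, fewer cells of a type and less RNA per cell cannot be told apart.

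In meiotic prophase each chromosome is folded along a protein axis, and the synaptonemal complex then joins the axes of homologous chromosomes side by side while recombination proceeds. SYCP3 and the HORMA-domain protein HORMAD1 sit on the axis, SMC1B is a subunit of the meiotic form of cohesin that holds sister chromatids, SYCP1 forms the transverse filaments that bridge both axes, and TEX12 belongs to the central element where the filaments meet. In mice female germ cells enter meiosis in the fetal ovary, whereas male germ cells stop dividing in the fetal testis and enter meiosis after birth.

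The members' promoters are shown as a description, and whether their sequences bear on the levels below was not tested. Each line holds 250 bases before and 50 after the annotated start, 5′ to 3′ on the gene's strand, from RefSeq on GRCm38.p6. Capitals mark 2 hexamers, searched on both strands: CACGTG, an E-box, and TCCCGC, the core of E2F-type elements, which reads GCGGGA on the other strand. The hexamers did not overlap each other in any window. The windows lie at chr3:102936051-102936350 on the minus strand for Sycp1, chr9:50561219-50561518 (minus) for Tex12, chr10:88459337-88459636 (plus) for Sycp3, chr3:95559427-95559726 (plus) for Hormad1 and chr15:85131908-85132207 (minus) for Smc1b.
Sycp1: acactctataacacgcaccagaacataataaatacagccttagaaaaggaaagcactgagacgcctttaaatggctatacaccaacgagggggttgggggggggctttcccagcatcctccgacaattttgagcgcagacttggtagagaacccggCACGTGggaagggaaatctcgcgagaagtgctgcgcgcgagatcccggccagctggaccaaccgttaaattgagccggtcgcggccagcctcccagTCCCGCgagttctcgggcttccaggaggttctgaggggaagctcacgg
Tex12: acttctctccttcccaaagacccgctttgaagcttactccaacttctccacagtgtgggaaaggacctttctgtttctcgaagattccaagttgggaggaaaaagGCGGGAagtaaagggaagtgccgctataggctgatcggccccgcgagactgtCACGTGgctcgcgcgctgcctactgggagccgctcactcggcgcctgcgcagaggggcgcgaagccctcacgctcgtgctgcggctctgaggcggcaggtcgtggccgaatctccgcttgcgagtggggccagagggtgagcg
Sycp3: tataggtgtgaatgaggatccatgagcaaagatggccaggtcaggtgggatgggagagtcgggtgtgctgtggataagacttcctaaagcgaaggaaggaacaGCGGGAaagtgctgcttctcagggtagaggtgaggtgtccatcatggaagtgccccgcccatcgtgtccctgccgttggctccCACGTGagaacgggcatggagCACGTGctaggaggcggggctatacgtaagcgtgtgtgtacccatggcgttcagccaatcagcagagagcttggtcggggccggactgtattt
Hormad1: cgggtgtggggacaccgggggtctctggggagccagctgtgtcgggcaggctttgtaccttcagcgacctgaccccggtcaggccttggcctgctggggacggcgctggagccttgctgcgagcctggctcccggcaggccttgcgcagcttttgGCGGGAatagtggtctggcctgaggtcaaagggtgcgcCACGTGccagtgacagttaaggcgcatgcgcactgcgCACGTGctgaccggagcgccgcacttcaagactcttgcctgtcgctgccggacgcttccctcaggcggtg
Smc1b: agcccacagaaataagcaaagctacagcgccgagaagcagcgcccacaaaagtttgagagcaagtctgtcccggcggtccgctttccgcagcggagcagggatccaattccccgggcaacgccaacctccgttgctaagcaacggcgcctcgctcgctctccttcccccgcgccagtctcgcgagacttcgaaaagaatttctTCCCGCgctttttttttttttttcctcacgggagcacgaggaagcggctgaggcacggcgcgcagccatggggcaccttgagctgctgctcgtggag

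TCCCGC was found in all 5 windows, and in 20.0% of 32851 promoter windows of this length in the table. CACGTG was found in 4 of the 5, all but Smc1b, against 7.15% of all windows. Sycp3 and Hormad1 each held CACGTG at 2 places, and it lay 94 bases before the start in Sycp1 and 93 in Tex12. The members' windows were rich in CpG, with 21 in Sycp1, 26 in Tex12, 15 in Sycp3, 24 in Hormad1 and 29 in Smc1b against a median of 7. Among the 11378 windows with at least 15 CpG, 45.4% held TCCCGC, 11.3% held CACGTG and 5.04% held both. Of 8 other synaptonemal complex and axis genes with a window, 2 held TCCCGC and 3 held CACGTG, whereas of 6 general cohesin genes 5 held TCCCGC and 0 held CACGTG. A match describes letters in the window and was not tested as a binding site.

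**Figure D1:**
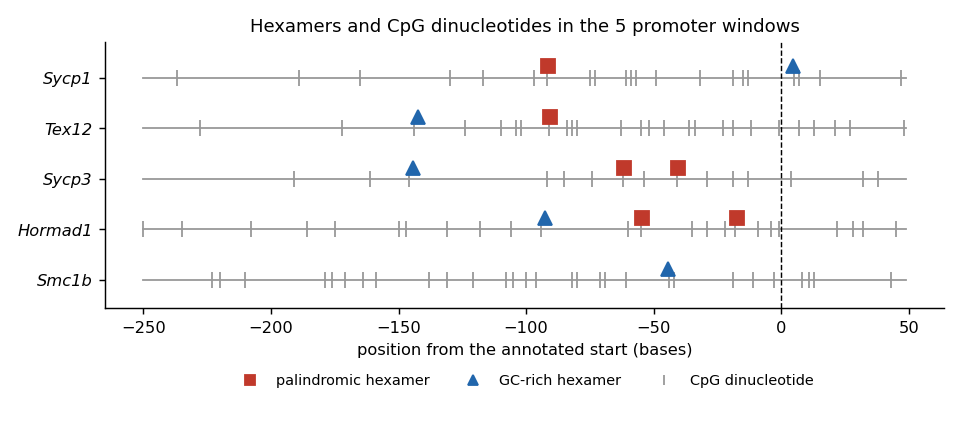
Positions of the palindromic hexamer CACGTG (red squares), the hexamer TCCCGC on either strand (blue triangles) and CpG dinucleotides (grey ticks) in the 300-base promoter windows of the 5 genes; the x axis gives bases from the annotated start (dashed line). All 5 windows carry a blue triangle, and Smc1b alone lacks a red square.

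Levels are log2 processed signals relative to the 75th percentile of each array, so that 0 is that percentile, and they are compared within a probe only. For genes with several probes the values are those of the brightest. Between 17.8% and 76.8% of probes were well above background per array, lowest on an E10.5 male array, and the dimmest such signal per array ranged from -10.72 to -3.58. E10.5 replicate 1 arrays had high limits of this kind (-4.89 in females and -3.58 in males), and Sycp1, Tex12, Sycp3 and Hormad1 were not well above background on them. Their E10.5 levels therefore rest on 1 array of 2 in each sex. Changes were tested with limma on all 28 arrays, called at an adjusted p under 0.05 over all features of a comparison, and are given as log2 differences ± SE.

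Sycp1 was the member with the steepest female course. It lay at -6.85 and -5.58 on the E10.5 female arrays, at 0.09 and -0.88 at E13.5 and at 2.29 and 2.57 at E17.5. In males it lay at -5.83 and -6.55 at E10.5, at -1.85 and -1.98 at E13.5 and at -2.90 and -1.90 at E17.5. The arrays of the female stages did not overlap, whereas those of E13.5 and E17.5 males did. Oogonia (1.58 and 1.82) stayed on the female side, and spermatogonia (-0.51 and -0.46), GS cells (-0.74 and -0.10) and testis (0.72 and 0.51) lay between. EG arrays reached from -5.77 to -4.39 and ES arrays from -6.69 to -4.07. Some of them lay above every E10.5 array.

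Tex12 had another order, with the highest level of its brightest probe in spermatogonia (0.84 and 0.37). Of its other probes 1 was highest in oogonia (mean -1.99, against -2.29 in spermatogonia) and 1 in spermatogonia (0.14, against -0.14 in oogonia). In females the brightest probe lay at -5.40 and -5.37 at E10.5, -0.24 and -0.87 at E13.5 and -0.04 and -0.15 at E17.5. In males it lay at -5.74 and -5.64, then -2.53 and -3.20, and at E17.5 at -0.45 and -0.57. The E17.5 arrays of both sexes were thus less than 1 unit apart. Oogonia lay at -1.06 and -0.76, GS cells at -2.60 and -1.79 and testis at -1.42 and -1.62. EG arrays (-9.45 to -7.76) lay below every ES array (-7.47 to -6.75), and 1 EG male array was not well above background.

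Sycp3 was highest in oogonia (2.54 and 2.31) and E17.5 females (2.34 and 1.85), whose arrays overlapped. Females rose to these levels from -5.82 and -4.99 at E10.5 and -0.26 and -1.09 at E13.5. Males lay at -4.67 and -5.71, then -2.94 and -3.21, and at E17.5 -2.04 and -1.88. Spermatogonia (-0.11 and -0.40) and testis (0.10 and 0.02) lay above every fetal male array and below the E17.5 female arrays. GS cells lay at -1.44 and -1.96. ES males (-3.0 and -3.84) lay above ES females (-5.50 and -4.67) and above the EG arrays (-5.20 to -4.45).

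Hormad1 had the narrowest range of group means (5.17 units), from -6.27 ± 0.29 (SD, n = 2) in EG males to -1.10 ± 0.02 in testis. It lay at -1.72 and -1.88 in E13.5 females, -1.81 and -1.36 in E17.5 females, -3.06 and -3.13 in E13.5 males and -1.85 and -1.93 in E17.5 males. Oogonia (-2.25 and -2.20) and spermatogonia (-1.58 and -1.65) stayed close to E17.5 PGC. ES arrays of both sexes (-3.98 to -2.60) overlapped E13.5 males, and GS cells (-4.75 and -3.50) overlapped ES cells.

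Smc1b was well above background on all 28 arrays, so its early levels were measured directly. At E10.5 it lay at -1.60 and -1.48 in females and -1.49 and -1.80 in males, and the sexes overlapped. By E13.5 females had 2.27 and 2.11 and males 0.31 and 0.13, and by E17.5 females had 3.26 and 3.20 and males -0.47 and 0.08. Oogonia lay highest (3.27 and 3.54), testis at 1.14 and 1.13, spermatogonia at 0.77 and 0.78 and GS cells at -0.63 and 0.19. EG males were lowest (-6.83 and -6.33).

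The EG female arrays disagreed with each other. Replicate 2 was higher than replicate 1 for Smc1b (-1.62 against -4.47), Hormad1 (-2.67 against -5.13), Tex12 (-7.76 against -9.27) and Sycp1 (-4.39 against -5.66), and lower for Sycp3 (-5.20 against -4.45). The same array was higher for the germ cell RNA-binding gene Dazl (-3.09 against -6.30) and for Stra8, which retinoic acid induces at meiotic entry (-1.02 against -4.46), and lower for Ddx4 (-5.79 against -5.19). The group SD of Smc1b (2.02) and of Hormad1 (1.73) was the largest among the 14 groups for those genes, and their results on EG females are given with and without each array. Y-linked genes were well above background in all male groups and in none of the female PGC and oogonia, but up to 1 of 3 was so in EG females and 2 of 3 in ES females, the latter at summed levels of 0.011 to 0.014 against 0.213 to 0.270 in ES males.

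**Figure D2:**
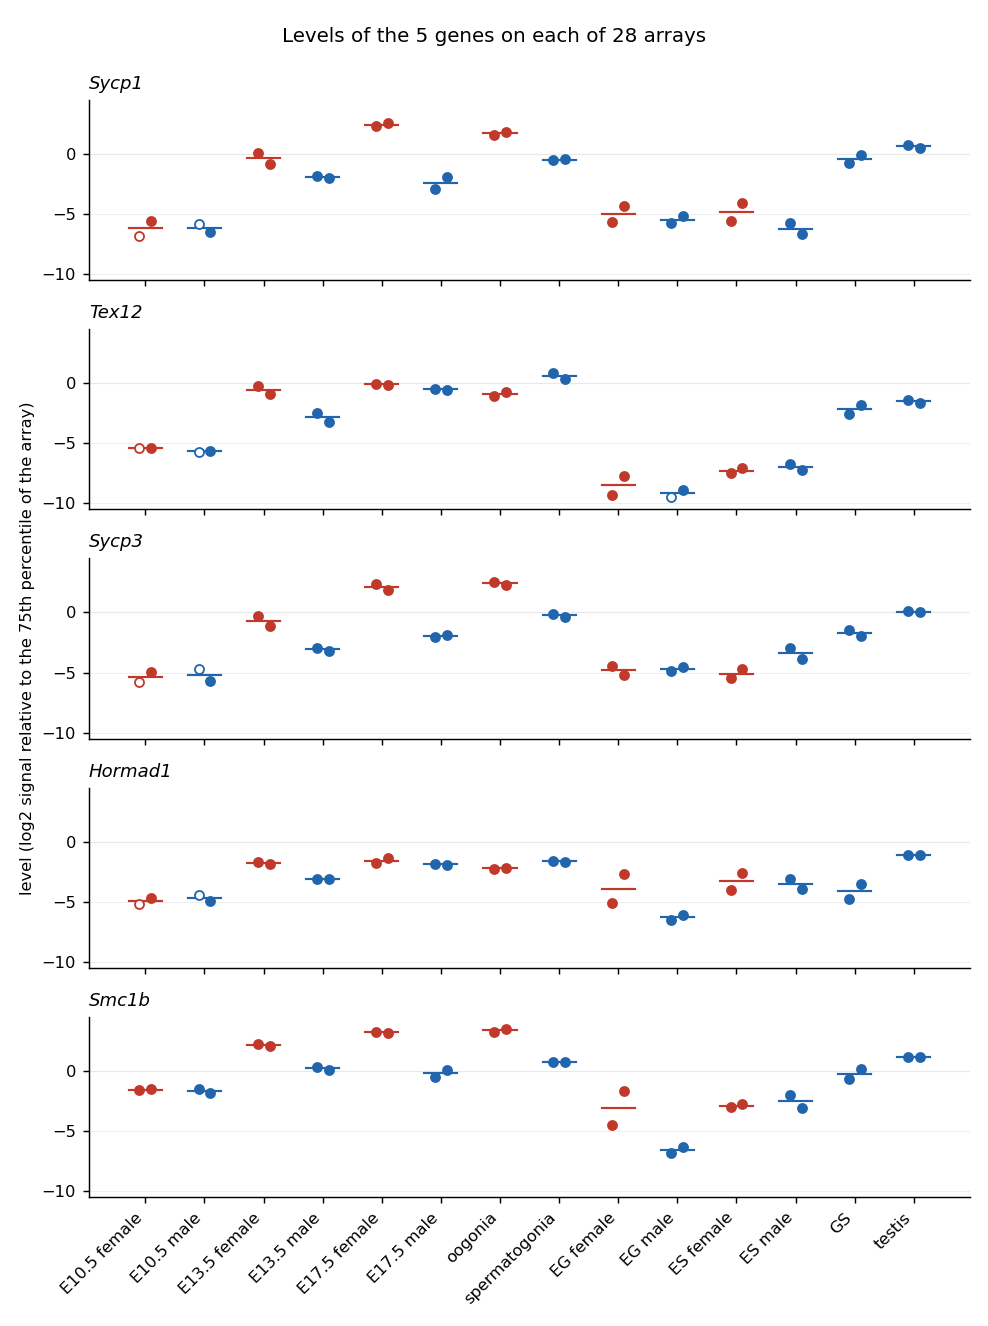
Level of each gene (brightest probe, log2 relative to the array's 75th percentile) on all 28 arrays, by group; red marks female and blue male groups, lines are means of 2 arrays, and open points were not well above background. Sycp1, Sycp3 and Smc1b stand high in E17.5 females and oogonia, Tex12 and Hormad1 are near each other in both sexes at E17.5, and the EG female points lie far apart for Smc1b and Hormad1.

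The members were higher at E13.5 than at E10.5. Sycp1, Tex12, Sycp3 and Hormad1 entered this test through E13.5 alone, where they are high, since 1 of 2 E10.5 arrays in each sex was well above background for them. Their counts and folds therefore describe the arrays and are no support by themselves, and Smc1b is the member measured on every array. In females all 5 rose, where 35.0% of 13595 features tested were called. Sycp1 rose by 5.82 ± 0.55 (56.6-fold, adjusted p = 1.19e-06), Tex12 by 4.83 ± 0.40, Sycp3 by 4.73 ± 0.41, Smc1b by 3.73 ± 0.58 and Hormad1 by 3.12 ± 0.59. In males 4 rose, where 27.0% of features were called: Sycp1 by 4.27 ± 0.54 (19.3-fold, adjusted p = 2.82e-05), Tex12 by 2.83 ± 0.40, Sycp3 by 2.11 ± 0.41 and Smc1b by 1.87 ± 0.58. Hormad1 differed by 1.55 ± 0.58 in males, short of the call (adjusted p = 0.0586, or 0.0462 with a replicate block).

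PGC replicate 1 arrays and replicate 2 arrays were scanned on separate days. The rise of Smc1b, which was well above background on all of these arrays, had the same sign within each day in both sexes. The other 4 members had this sign too. They entered the test through E13.5 alone and were not well above background on E10.5 replicate 1 arrays, so their signs are no support. Within the days, Sycp1 differed by 4.70 and 6.94 in females and 4.57 and 3.98 in males, and Smc1b by 3.59 and 3.87 and by 1.93 and 1.80. In males none of the 4 calls held with normexp background correction (Smc1b 1.51, adjusted p = 0.112), and the Smc1b call was lost without any 1 of the 4 arrays (differences 1.71 to 2.02).

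At E10.5 Smc1b was the only member that could be tested between the sexes, and it differed by -0.11 ± 0.57 (males minus females, 95% interval -1.30 to 1.09), with 0 members called where 0.0458% of features were (4 of 8741; limma gave 254 features an unadjusted p under 0.05, Smc1b not among them). At E13.5, 3 members were lower in males, where 19.5% of features were called: Sycp3 by -2.40 ± 0.41 (adjusted p = 0.000685), Tex12 by -2.31 ± 0.40 (adjusted p = 0.000739) and Smc1b by -1.97 ± 0.58 (adjusted p = 0.0251). Sycp1 (-1.52 ± 0.55, adjusted p = 0.0624) and Hormad1 (-1.30 ± 0.59, adjusted p = 0.137) had the same sign without a call. All 5 differences were negative on both scan days, and the Smc1b call was lost without any 1 of its 4 arrays (-2.06 to -1.88). The second Sycp3 probe gave -0.69 ± 0.85, not called. The other Tex12 probes gave -2.41 ± 0.86, not called, and -1.96 ± 0.36, called.

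Whether the early rise itself differed between the sexes was tested as an interaction (male change minus female change). It was called for 2 members, Sycp3 (-2.62 ± 0.59, adjusted p = 0.0132) and Tex12 (-2.0 ± 0.57, adjusted p = 0.0437), where 6.68% of features were called. Both entered the test through E13.5 alone, with 1 E10.5 array of 2 well above background in each sex, and without the filter on dim probes neither was called (adjusted p = 0.111 and 0.281). Within the scan days Sycp3 gave -1.40 and -3.83 and Tex12 -2.05 and -1.95. The Sycp3 call was lost without E10.5 female replicate 1, E10.5 male replicate 1, E13.5 female replicate 1 or E13.5 male replicate 2 (-3.14 to -2.09 over all arrays left out in turn). The Tex12 call was lost without any array but E13.5 male replicate 1 (-2.34 to -1.66). Smc1b, measured on every array, had an interaction of -1.86 ± 0.83 (adjusted p = 0.186).

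From E13.5 to E17.5 the members parted. In females Sycp1 rose by 2.82 ± 0.55 (7.08-fold, adjusted p = 0.00072) and Sycp3 by 2.77 ± 0.42 (6.81-fold, adjusted p = 6.47e-05). These were 2 of 5 members, where 40.2% of features were called and 22.7% were called higher. Smc1b (1.04 ± 0.59), Tex12 (0.47 ± 0.40) and Hormad1 (0.22 ± 0.59, 95% interval -1.04 to 1.47) were not called. On the deposited values Sycp1 (2.33, adjusted p = 0.06) and Sycp3 (2.28, adjusted p = 0.051) fell short of the call. In males the central element gene Tex12 rose by 2.35 ± 0.41 (5.11-fold, adjusted p = 0.00022), on each scan day (2.63 and 2.07) and with each of its 3 probes (1.98 to 2.47). On the deposited values it gave 2.18 (adjusted p = 0.0608). Sycp3 rose by 1.11 ± 0.42 (adjusted p = 0.0384). Tex12 and Sycp3 were 2 of 5 members, where 48.1% of features were called and 33.2% were called higher. In neither sex was the count read as a result about the set. Sycp1 (-0.49 ± 0.56), Smc1b (-0.42 ± 0.59) and Hormad1 (1.21 ± 0.60, adjusted p = 0.105) were not called in males. The Sycp3 value lies beside a median of 0.50 over all features in this comparison, and its call was lost without any 1 of the 4 arrays (0.98 to 1.24). Scaling to all probes moved that median to 0.02 and Sycp3 to 0.63 (adjusted p = 0.262).

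The interaction was called for 3 members and in both directions, where 32.4% of features were called. The female rise of Sycp1 was not matched in males (-3.31 ± 0.79, adjusted p = 0.00442), and Sycp3 rose less in males (-1.66 ± 0.60, adjusted p = 0.0428). Tex12 rose more in males (1.89 ± 0.58, adjusted p = 0.0195). Within the scan days these values were -3.37 and -3.25 for Sycp1, -1.61 and -1.70 for Sycp3 and 1.90 and 1.87 for Tex12. The second probes gave -2.82 ± 1.19 for Sycp1 and -1.33 ± 1.22 for Sycp3, neither called. The other Tex12 probes gave 2.34 ± 1.23, not called, and 1.65 ± 0.52, called. The Sycp3 call was lost without either E13.5 male or either E17.5 male array, E13.5 female replicate 2 or E17.5 female replicate 1 (-2.07 to -1.24 over all). The Tex12 call was lost without E13.5 female replicate 1, E13.5 male replicate 2, E17.5 female replicate 2 or E17.5 male replicate 1 (1.55 to 2.22). On the deposited values none of the 3 was called (Sycp1 -2.99, Sycp3 -1.34 and Tex12 2.21).

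At E17.5 this left 3 members far apart between the sexes and 2 close together. Males were lower than females for Sycp1 by -4.83 ± 0.56 (28.5-fold, adjusted p = 3.21e-06), for Sycp3 by -4.06 ± 0.42 (16.6-fold, adjusted p = 1.07e-06) and for Smc1b by -3.42 ± 0.59 (10.7-fold, adjusted p = 0.000157), where 54.8% of features were called. Each of these 3 was lower in males on both scan days (-5.19 and -4.47, -4.38 and -3.73, and -3.73 and -3.12). So were Tex12 (-0.41 and -0.42) and Hormad1 (-0.04 and -0.57), by smaller amounts. Tex12 differed by -0.42 ± 0.41 (95% interval -1.28 to 0.44) and Hormad1 by -0.30 ± 0.60 (-1.58 to 0.97), so differences as large as those of Sycp1, Sycp3 and Smc1b lie outside their intervals. The other 2 Tex12 probes gave -0.07 ± 0.87 and -0.30 ± 0.37, and the other Hormad1 probe -0.95 ± 0.64. For Sycp3 the dim second probe gave -2.02 ± 0.86 (adjusted p = 0.0586), less than the first, and for Sycp1 the second gave -3.69 ± 0.84. The calls of Sycp1, Sycp3 and Smc1b held under every alternative that was run. The comparisons of stages and sexes share PGC arrays, so their values stand side by side and are not independent of each other.

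**Figure D3:**
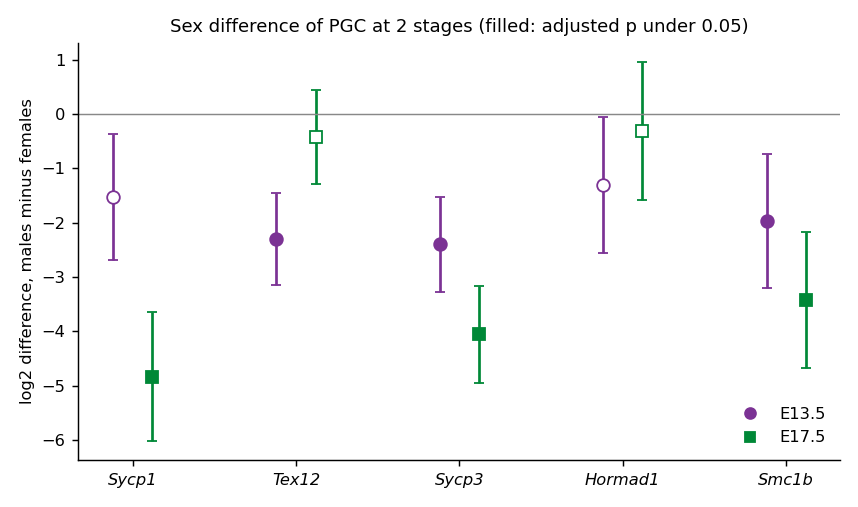
Log2 difference, PGC males minus females, for each gene at E13.5 (purple circles) and E17.5 (green squares); bars are 95% intervals from limma, 2 arrays per group, and filled symbols have an adjusted p under 0.05. For Sycp1, Sycp3 and Smc1b the estimate moved away from 0 by E17.5, for Tex12 and Hormad1 toward it.

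Markers of other cells differed between the same groups. Of 9 measured Sertoli and pregranulosa genes, 7 to 8 were well above background in E17.5 males and 3 to 5 in E17.5 females, with summed levels of 3.79 to 7.75 and 0.195 to 0.351 (in multiples of the array's 75th percentile). Foxl2 and, on 1 of the arrays, Gata4 were not well above background in E17.5 males. At E13.5 the sums were 0.866 to 1.89 in males and 0.138 to 0.142 in females. Blood genes summed to 2.81 to 16.7 in E17.5 females and 1.11 to 3.81 in E17.5 males, with Cdh5 and Ptprc not well above background on any of these arrays. The 6 measured germ cell markers were all well above background on every array of both (sums of 11.2 to 11.8 in females and 12.9 to 13.4 in males). The part of these cells in the members' differences was not tested.

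The rest of the axis and cohesin genes did not move as one at E17.5. Over all features 32.1% were higher and 22.7% lower in E17.5 males. Of 4 measured axis and synaptonemal complex genes outside the set, 3 were lower: Tex11, a partner of the recombination and synapsis machinery (-2.97 ± 0.38), 4930447C04Rik, the central element gene Six6os1 (-1.95 ± 0.45), and Trip13, the ATPase that removes HORMA-domain proteins from axes (-1.01 ± 0.22). Sycp2, which pairs with SYCP3 in the axis, was not called (-2.02 ± 0.91, adjusted p = 0.0703). Of 9 tested double-strand break and recombination genes 7 were lower in males, among them Msh4 (-2.99 ± 0.83) and Spo11 (-1.56 ± 0.39), which makes the breaks, and 0 were higher.

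Among the cohesin genes Rec8 differed between the sexes at E17.5 with the opposite sign to Smc1b. Rec8, the meiotic kleisin, lay at 0.25 and -0.38 in E13.5 females and at -6.47 and -6.99 in E17.5 females, where 1 of 2 arrays was well above background, a fall of -6.66 ± 0.43 (limma adjusted p = 9.14e-09). In males Rec8 lay at -4.60 and -4.25 and then at -2.15 and -2.50. At E17.5 it was therefore 4.41 ± 0.43 higher in males, on the arrays where the Smc1b difference was -3.42. Rec8 entered both tests through the group where it is high, so the fall and the sex difference are no support by themselves. Smc1b was not called between E13.5 and E17.5 in either sex. Stag3, the meiotic stromalin, differed by 0.57 ± 0.41. Of 5 general cohesin genes 4 were higher in E17.5 males, where 32.1% of all features were, and 0 lower: Rad21 by 2.61 ± 0.23, Stag1 by 1.59 ± 0.25, the cohesin release factor Wapl by 1.40 ± 0.19 and Smc3 by 1.18 ± 0.28, with Smc1a at -0.03 ± 0.24.

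**Figure D4:**
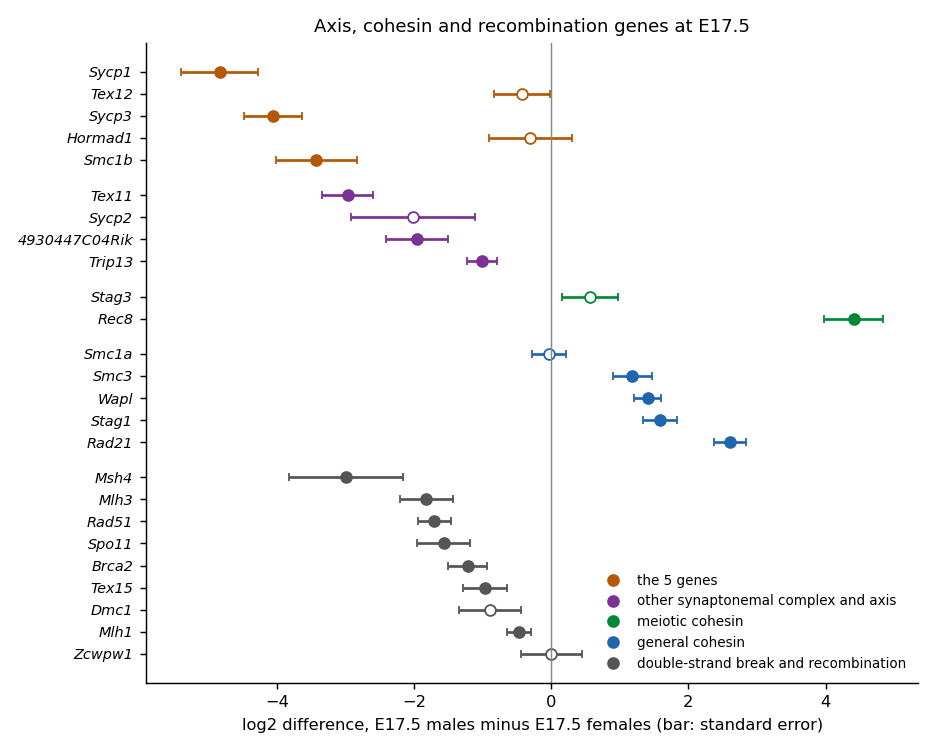
Log2 difference, E17.5 males minus E17.5 females, for the 5 genes and the tested genes of 4 related lists; points are limma estimates over 2 arrays per group, bars are standard errors, and filled points have an adjusted p under 0.05. The axis, synapsis and recombination genes called lie below 0, Rec8 and the general cohesin genes called lie above 0, and Tex12 and Hormad1 are open near 0.

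Genes of meiotic entry had other courses. Stra8 lay at 3.34 and 2.87 in E13.5 females and at -4.73 and -4.60 in E17.5 females, a fall of -7.77 ± 1.11, while Sycp1 and Sycp3 rose. In E13.5 males Stra8 was well above background on 1 of 2 arrays (-4.72 and -5.69), and Nanos2, a repressor of meiosis in male germ cells, was high there (-0.06 on average) and lower by -5.52 ± 1.01 at E17.5, on arrays of which 1 of 2 was well above background. Nanos2 therefore entered that test through E13.5 alone, where it is high, and its fall is no support by itself. Tex12 rose in males over the same interval. Dazl differed by -0.80 ± 0.71 between the sexes at E17.5 (adjusted p = 0.349).

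Oogonia were compared with E17.5 females. In limma 0 members were called between them, where 22.6% of features were, and limma gave no member an unadjusted p under 0.05 (6062 features did). The smallest p belonged to Tex12 (-0.82 ± 0.41, adjusted p = 0.165, 95% interval -1.68 to 0.05), and the widest interval, that of Hormad1, ran from -1.92 to 0.63. Smc1b differed by 0.18 ± 0.59, Sycp3 by 0.33 ± 0.42 and Sycp1 by -0.73 ± 0.56. The other probes of Tex12 (0.65 ± 0.87 and 0.13 ± 0.37), Sycp3 (-1.57 ± 0.86) and Sycp1 (0.75 ± 0.84) had the opposite sign to the brightest. That of Hormad1 (-1.18 ± 0.64) had the same sign, and none of these probes was called.

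Spermatogonia were higher than E17.5 males for Sycp1 (1.92 ± 0.56, adjusted p = 0.0259) and Sycp3 (1.71 ± 0.42, adjusted p = 0.0103), where 19.6% of features were called. Tex12 (1.12 ± 0.41, adjusted p = 0.0663) and Smc1b (0.97 ± 0.59) were not called. The Sycp1 call was lost without E17.5 male replicate 1 (1.41) or either spermatogonia array (1.89 and 1.94), and that of Sycp3 without either E17.5 male array or spermatogonia replicate 1 (1.57 to 1.85 over all). With slide as a random block both calls were lost (Sycp1 1.67, adjusted p = 0.378, and Sycp3 1.59, adjusted p = 0.236). The second probes gave 0.69 ± 0.84 for Sycp1 and 0.13 ± 0.87 for Sycp3.

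Between spermatogonia and oogonia the sex contrast of E17.5 was seen again for 3 genes, in samples that the PGC comparison did not use, where 50.5% of features were called. Smc1b was lower in spermatogonia by -2.63 ± 0.60 (adjusted p = 0.00157), Sycp3 by -2.68 ± 0.42 (adjusted p = 7e-05) and Sycp1 by -2.19 ± 0.56 (adjusted p = 0.00403). Hormad1 differed by 0.61 ± 0.60 and its other probe by 0.16 ± 0.64. For Tex12 the brightest probe was higher in spermatogonia (1.52 ± 0.41, adjusted p = 0.00575), but the others gave 0.27 ± 0.37 and -0.30 ± 0.88, and the call was lost without spermatogonia replicate 1 (1.28). The second Sycp3 probe gave -0.32 ± 0.87. Each of these groups lay on 1 slide of its own, scanned on days of its own, so group and slide cannot be told apart, and the same holds for every comparison of oogonia, spermatogonia, EG, ES, GS or testis with another slide. With slide as a random block, Sycp3 alone kept its call. The germ cell markers summed to 10.5 to 11.1 in spermatogonia and 22.7 to 23.1 in oogonia, and the Sertoli and pregranulosa genes (7 of 9 well above background in both) to 1.07 to 1.23 and 0.233 to 0.248. Their part in the result was not tested.

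The EG samples had low levels of the members. Compared with E13.5 PGC of the same sex all 5 were lower in EG females, where 36.8% of features were called, and all 5 in EG males, where 27.7% were. Tex12 was lower by -7.96 ± 0.41 in females (249-fold, adjusted p = 3.52e-09) and by -6.31 ± 0.41 in males, where 1 of 2 EG arrays was well above background. Tex12 therefore entered the male test through E13.5 alone, where it is high, so its male value is no support by itself. The EG female levels of Tex12 (-9.27 and -7.76) lay above the background limits of their arrays (-9.56 and -9.76), the first of them narrowly. Each other Tex12 probe was well above background on 1 of 2 EG female arrays, so the size of the female fold is uncertain. Smc1b was lower by -5.23 ± 0.60 and -6.80 ± 0.60, Sycp1 by -4.63 ± 0.57 and -3.58 ± 0.57, Sycp3 by -4.15 ± 0.43 and -1.60 ± 0.43 and Hormad1 by -2.10 ± 0.61 and -3.17 ± 0.61. The female Hormad1 call was lost without E13.5 female replicate 1 (-2.02). Without EG female replicate 1 the Smc1b difference was -3.80 and that of Hormad1 -0.88 (adjusted p = 0.285), and without replicate 2 they were -6.66 and -3.33. The male Sycp3 call was lost without E13.5 male replicate 1 (-1.47) or EG male replicate 1 (-1.45). The second Sycp3 probe gave -1.01 ± 0.87 in females and -1.0 ± 0.87 in males, neither called. With the common floor described below, Tex12 (-0.71), Sycp3 (-0.50) and Hormad1 (-0.48) lost their call in males. With slide as a random block Hormad1 lost its call in females (-2.08, adjusted p = 0.186) and in males (-3.14, adjusted p = 0.066), and Sycp3 in males (-1.61, adjusted p = 0.162).

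EG and ES samples differed from each other in 3 members, where 7.06% of features were called. Tex12 (-1.71 ± 0.30, adjusted p = 0.00301), Smc1b (-2.11 ± 0.43, adjusted p = 0.00776) and Hormad1 (-1.69 ± 0.43, adjusted p = 0.0265) were lower in EG, and Sycp1 (0.27 ± 0.40) and Sycp3 (-0.50 ± 0.30) were not called. The second probes of Sycp1 (-0.41 ± 0.60) and Sycp3 (1.11 ± 0.62) had the opposite sign, neither called. The other tested probes of Hormad1 (-2.29 ± 0.46) and Tex12 (-2.10 ± 0.27) were called lower. EG male arrays were below all 4 ES arrays for Tex12, Smc1b and Hormad1, whereas EG female replicate 2 lay above them for Smc1b and within their range for Hormad1. Without it the differences were -2.09, -2.82 and -2.30, and without EG female replicate 1 they were -1.33, -1.39 and -1.07, the last without a call. The Hormad1 call was also lost without either EG male array, ES female replicate 2 or ES male replicate 1 (-1.79 to -1.34). The EG arrays shared 1 slide and the ES arrays another, so slide, strain and cell type cannot be told apart here, and with slide as a random block none of the 3 was called. Raising all dim values to the highest background limit among the arrays (-3.58) brought these differences to between -0.38 and 0.00.

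GS samples were lower than spermatogonia in 3 members, where 25.5% of features were called. Tex12 was lower by -2.80 ± 0.42 (adjusted p = 0.000185) and its other probes by -2.59 ± 0.88 and -2.45 ± 0.38. Hormad1 (-2.51 ± 0.61, adjusted p = 0.0067) and Sycp3 (-1.44 ± 0.43, adjusted p = 0.0225) were lower on the brightest probe alone, since their second probes gave -0.58 ± 0.65 and 0.30 ± 0.88. Sycp1 (0.07 ± 0.57, 95% interval -1.15 to 1.28) and Smc1b (-0.99 ± 0.61) were not called. The Hormad1 call was lost without GS replicate 1 (-1.88), and that of Sycp3 without either spermatogonia array or GS replicate 2 (-1.70 to -1.18). With slide as a random block none of the 3 was called. Stroma and Leydig genes summed to 14.9 in GS replicate 1 and 1.98 in replicate 2, beside 1.15 to 1.27 in spermatogonia. Germ cell markers summed to 4.38 and 10.5 in the GS arrays and 10.5 to 11.1 in spermatogonia, and spermatocyte and spermatid markers to 0.146 to 0.331 and 0.950 to 1.02. The part of these cells was not tested.

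**Figure D5:**
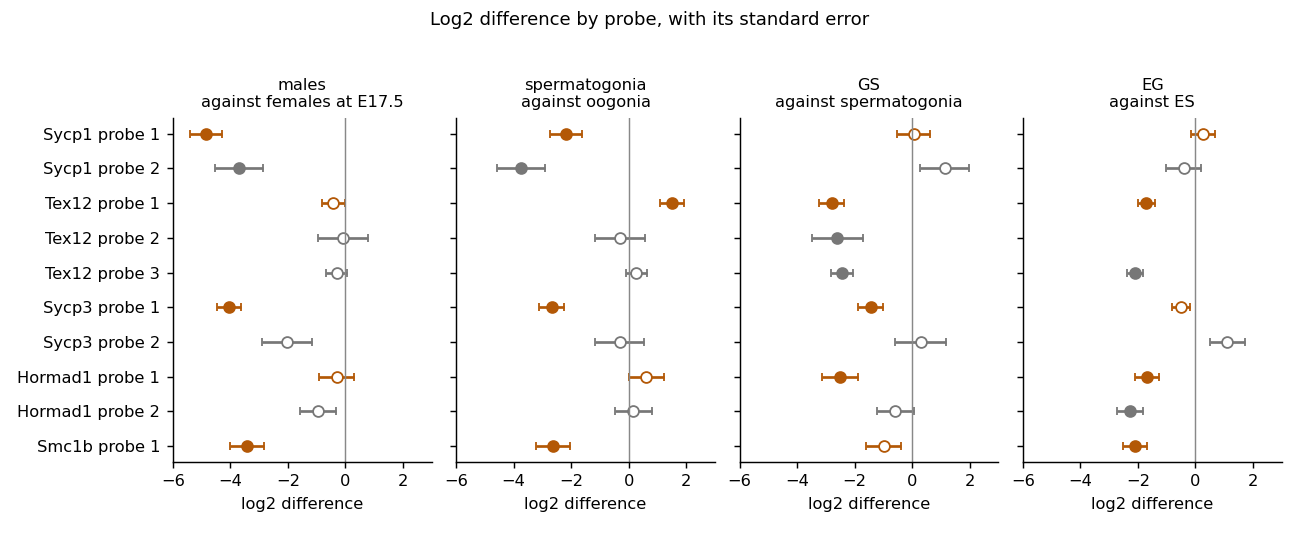
Log2 difference for each of the 10 probes in 4 comparisons, with standard errors; orange marks the brightest probe of a gene and grey the others, filled points have an adjusted p under 0.05, and a probe that was not tested is left out. The Sycp3 probes lie apart for the sex difference at E17.5, and the Sycp3, Tex12 and Sycp1 probes in spermatogonia against oogonia. So do the Hormad1 and Sycp3 probes in GS against spermatogonia and the Sycp3 probes in EG against ES.

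Testis differed from spermatogonia in 1 member, where 44.8% of features were called. Tex12 was lower by -2.13 ± 0.43 (adjusted p = 0.00062), and its other probes gave -2.0 ± 0.89 and -1.98 ± 0.39. With slide as a random block the call was lost (adjusted p = 0.0661). The second Hormad1 probe was higher in testis (1.88 ± 0.65, adjusted p = 0.0266), unlike the brightest. Sycp1 (1.1 ± 0.58), Hormad1 (0.51 ± 0.62), Smc1b (0.36 ± 0.61) and Sycp3 (0.32 ± 0.44) were not called, and 3 of these changed sign under other scalings (Hormad1 -0.03, Smc1b -0.18 and Sycp3 -0.23 with scaling to all probes). Adult testis holds many cell types. All 6 spermatocyte and spermatid markers measured were well above background (sum 37.5 to 39.1, against 0.950 to 1.02 in spermatogonia). So were 7 to 8 of 9 Sertoli and pregranulosa genes, beside 7 in spermatogonia, with sums of 9.41 to 9.86 against 1.07 to 1.23. Their part in the result was not tested. The comparisons of GS cells and testis share the spermatogonia arrays.

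Over the 14 group means the members' profiles were alike, with Pearson's r from 0.76 (Sycp1 and Hormad1) to 0.95 (Sycp1 and Sycp3). These points share arrays and background limits. Over the 8 PGC, oogonia and spermatogonia means the most alike were Tex12 and Hormad1 (0.99) and, next, Sycp1 and Sycp3 (0.98), with Tex12 and Smc1b least (0.75). Among 11835 other named genes, the profiles most like the mean of the 5 were those of Pigp (0.97), Mael (0.96), Supt3 (0.96), Sycp2 (0.96), Ccdc172 (0.96), Ncoa6, Reps2, Opn3, Msh4 and Rab11a (0.95 each), and Rec8 stood at 0.31. The nearest to single members were Rnf103 for Sycp1 (0.95), Slc39a6 for Tex12 (0.97), Zbtb18 for Sycp3 (0.97), Sobp for Hormad1 (0.87) and Msh4 for Smc1b (0.96).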

How the data were processed

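RNA from 28 samples was hybridised, 1 colour (Cy3), to Agilent mouse arrays. Per the file headers and the submitters' processing notes, spots were quantified by the authors with Agilent Feature Extraction 10.5.1.1, and its processed signal is a background-adjusted intensity. The deposited table of log2 values equals log2 of that intensity minus each array's median (within 0.003) and served as an alternative. Per the file headers, flags mark spots well above background, non-uniform or saturated (0 saturated).

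Control spots (1417) and 514 non-uniform probes were left out. Each array was scaled to its 75th percentile of log2 signal over the 7227 probes well above background on all arrays, since many probes were dim on many arrays. Of 43803 probes 16759 matched 13142 symbols in the RefSeq table (GRCm38.p6), and 62 had accessions that differ between design files. The brightest probe stood for a gene. Testing was limited to features that exceeded background clearly on each array of 1 or more of the groups compared. Group means were fitted in limma 3.58.1 (R 4.3.3; 14 residual degrees of freedom), with Benjamini-Hochberg adjustment, and the code was tested on simulated data.

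Alternatives were another percentile, quantile normalization, normexp, the deposited table, the mean of probes, a common floor, no filter and non-uniform probes kept. Normexp used an offset of 50 and median signals, since mean signals were not given. Other alternatives were the replicate number, scan day or slide as a term, slide as a random block, only the compared groups, and each array left out. Same-numbered PGC arrays were scanned together, but deviations of the 15 pairs of PGC groups correlated from -0.57 to 0.85, so the numbers were not taken to pair samples. The members and gene lists were chosen with earlier results of these data known. Named list genes are up to 4 called genes with the largest difference per list and comparison, beside genes named for context after their values were seen. Arrays have no read depth, and 2 arrays per group limit the precision.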

Additional observations from a re-analysis of the deposited data

Results flagged for a closer look

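The change over time was called different between the sexes, in a test of the difference itself (male change minus female change, limma), for 5 results. From E10.5 to E13.5 these were Sycp3 (-2.62 ± 0.59) and Tex12 (-2.0 ± 0.57). From E13.5 to E17.5 they were Sycp1 (-3.31 ± 0.79), Sycp3 (-1.66 ± 0.60) and Tex12 (1.89 ± 0.58). Tex12 had opposite signs in the 2 intervals, but both values hold the same E13.5 arrays, with opposite sign, so they are not independent. Both early results entered through E13.5 alone, and neither was called without the filter on dim probes. The early Tex12 call was also lost without any array but E13.5 male replicate 1. On the deposited values none of the late results was called.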

How the results depend on the processing

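Of 785 alternatives to 47 called results, 630 kept the call, 155 lost it and 0 changed sign. The cause was not tested. With the replicate block the number of members called was the same in 16 comparisons and 5 in place of 4 for E13.5 against E10.5 in males. Called members fell, under normexp, from 4 to 0 (E13.5 against E10.5, males), 2 to 1 (E17.5 against E13.5, males), 2 to 0 (early sex by stage), 2 to 0 (spermatogonia against E17.5 males) and 3 to 1 (EG against ES). On the deposited table they fell from 4 to 2, 2 to 0, 2 to 0, 2 to 0 and 3 to 1 in the same comparisons, from 2 to 0 for E17.5 against E13.5 in females, 3 to 0 for the late sex by stage, 5 to 3 for EG against E13.5 males and 3 to 1 for GS cells. With a common floor they went from 4 to 2 (E13.5 against E10.5, males), 3 to 5 (sexes at E13.5), 0 to 1 (oogonia), 5 to 2 (EG against E13.5 males), 3 to 0 (EG against ES) and 1 to 2 (testis). With only the compared groups they went from 4 to 2 (E13.5 against E10.5, males), 2 to 0 (early sex by stage), 2 to 4 (spermatogonia against E17.5 males), 3 to 1 (EG against ES) and 1 to 3 (testis). For E17.5 against E13.5 males and the early sex by stage, 2 became 1 with the percentile over all probes, quantile normalization or the mean of probes. Quantile normalization also took the late sex by stage from 3 to 1, spermatogonia against E17.5 males from 2 to 1 and against oogonia from 4 to 2, and the mean of probes took spermatogonia against E17.5 males from 2 to 0 and GS cells from 3 to 1. Without a filter these were 2 to 1 (E17.5 against E13.5, males), 2 to 0 (early) and 3 to 1 (late sex by stage) and 2 to 0 (spermatogonia against E17.5 males). A random slide block took spermatogonia from 2 to 0 against E17.5 males and 4 to 1 against oogonia, EG from 5 to 3 against E13.5 males and 3 to 0 against ES, GS cells from 3 to 0 and testis from 1 to 0. With 1 array left out, called members ranged from 1 to 1 (E17.5 against E13.5, males), 0 to 2 (early) and 1 to 2 (late sex by stage) and 0 to 1 (spermatogonia against E17.5 males). Sign changes touched uncalled results. For E17.5 against E13.5 in females the deposited table gave Tex12 -0.026 and Hormad1 -0.28, and Hormad1 ranged from -0.0098 to 0.44 with 1 array left out. In males Sycp1 gave 0.11 with slide as a term and -0.99 to 0.015 with 1 array left out. Smc1b between the sexes at E10.5 gave 0.0032 with normexp and -0.26 to 0.046 with 1 array left out. For oogonia, the deposited table gave Sycp1 0.073 and Hormad1 0.16, and the mean of probes Sycp1 0.0091 and Sycp3 -0.62. For spermatogonia against oogonia, Hormad1 gave -0.022 with all probes and -0.61 on the deposited table. For EG against ES, the mean of probes gave Sycp1 -0.072 and Sycp3 0.30, and Sycp1 ranged from -0.11 to 0.64 with 1 array left out. For GS cells, Sycp1 gave -0.066 with all probes, -0.043 with quantiles and -0.25 to 0.38 with 1 array left out. For testis, all probes, quantiles and the deposited table gave Sycp3 -0.23, -0.27 and -0.25, Hormad1 -0.035, -0.0096 and -0.054 and Smc1b -0.18, -0.23 and -0.20, and the mean of probes gave Sycp3 -0.31. Scaling to all probes moved the median of all features from 0.32 to -0.31 for spermatogonia against oogonia. Dim E10.5 arrays and 2 arrays per group limit the precision.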
